A study of Homo sapiens with 17 samples.

Results

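The genes described here are 46 members of the human nuclear receptor family, out of 19974 protein-coding genes on chromosomes 1 to 22 and X. A member was tied to a binding site when the summit of a peak lay within 50 kb of the ends of the gene in RefSeq GRCh38, and no binding value was used to choose the members. Nuclear receptors are transcription factors that share a zinc-finger DNA-binding domain and, in most members, a pocket for a small lipophilic ligand such as a steroid, thyroid hormone, retinoic acid or a bile acid. Steroid receptors bind DNA mainly as pairs of the same protein, many others pair with a retinoid X receptor (RXR), and orphan receptors lack a known hormone. FOXA proteins are forkhead pioneer factors, able to bind sites in closed chromatin, and are known for opening chromatin where estrogen and glucocorticoid receptors then bind. The peaks described here answer a different question, namely where the FOXA proteins lay around the receptor genes themselves.

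Flag ChIP-seq sequences the DNA that is bound to a Flag-tagged protein, and U2OS cells, an established line from a human osteosarcoma, were used for it. The cells carried a Tet-on construct for 1 of 8 Flag-tagged proteins: FOXA1, FOXA2 or FOXA3 at full length, each of these lacking its CTD (the usual short form of C-terminal domain), SOX2 at full length, or SOX2 fused to the CTD of FOXA2. All 8 groups received doxycycline at 500 ng/ml for 4 days, as the treatment labels give it, and had 2 biological replicates, while 1 further sample was input DNA. SOX2 is a pioneer factor of the SOX family, and every protein was made from an introduced construct, so the sites are those of an induced protein in an osteosarcoma line. Each group has 1 list of peaks that combines both replicates, so differences between lists have no replicate check. The authors' −log10 p of a peak is given for both replicates, in the order of the file and without replicate numbers, and the lower of both is called the strength of the peak. It depends on sequencing depth, so a strength is best read within its own list.

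The lists differ in length and in how strictly they were limited, which bears on every count. On chromosomes 1 to 22 and X the FOXA1 and FOXA2 lists hold 37219 to 52866 peaks, the FOXA3 lists 6082 and 6763, the SOX2 list 1365 and the list of the fusion 7844. The weakest peak had an irreproducible discovery rate (IDR, which is low when a peak ranks alike in both replicates) of 0.200 and 0.0501 for FOXA1, 0.351 and 0.250 for FOXA2, with the full-length list first in each pair. It was 0.100 and 0.01 in the FOXA3 lists, 0.100 for SOX2 and 0.920 for the fusion. Sequencing depth was not given in the sources used here, and the 95% intervals below (Wilson) cover counting error over peaks or genes only. Of the rows of both FOXA3 lists, 5012 are identical, and all 27 peaks near members in the full-length list are among them. Whether the FOXA3 full-length values are those of the full-length protein cannot be told from the files.

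Few of the summits lay at a receptor gene's promoter. RefSeq promoter windows, 250 bases before to 50 after a start, were at hand for 41 of the 46 members, 96 windows in all, and a summit of any list fell inside a window of 4 members: RARB, THRB, RORA and ESRRG. That is 9.76% (3.86 to 22.5) of the 41, close to the 9.85% of 15813 coding genes with a window in the table that held one. Counted by window the share was lower, at 4 of the 96 (4.17%) against 7.65% of the 22140 windows of coding genes. RARB encodes retinoic acid receptor beta, itself a retinoic acid target, and its window was the one hit in more than 1 list. RORA encodes a monomeric receptor of the circadian clock, and its window was the one hit in the list of the fusion. For RARB and ESRRG a summit lay within the 250 bases before the start, and these are shown for that reason (GRCh38.p14, RefSeq), RARB from chr3:25458060-25458309 on the plus strand and ESRRG from chr1:216723430-216723679 on the minus strand. The FOXA1 CTD-deleted, FOXA2 full-length and FOXA2 CTD-deleted summits at RARB lay 31, 90 and 92 bases before the start, and the FOXA1 full-length summit at ESRRG 44 bases before it. The FOXA1 full-length summit at RARB (22 bases), the THRB summit (45 bases) and the RORA summit (30 bases) lay after the start, outside the bases shown. Capitals mark a match to a SOX-type motif.
RARB: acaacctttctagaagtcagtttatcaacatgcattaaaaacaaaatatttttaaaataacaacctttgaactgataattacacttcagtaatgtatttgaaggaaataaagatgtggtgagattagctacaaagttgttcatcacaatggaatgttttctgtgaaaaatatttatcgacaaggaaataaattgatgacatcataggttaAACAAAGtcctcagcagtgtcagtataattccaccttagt
ESRRG: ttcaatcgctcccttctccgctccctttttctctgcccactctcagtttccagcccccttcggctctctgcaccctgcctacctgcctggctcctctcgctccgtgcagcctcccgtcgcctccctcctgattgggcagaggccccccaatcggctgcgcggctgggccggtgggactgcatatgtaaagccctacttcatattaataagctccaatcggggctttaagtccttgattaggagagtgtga

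The RARB start is 1 of 4 in the table and lies 629 kb inside the gene, on its plus strand. All 4 FOXA1 and FOXA2 lists had a summit in this window, and none of the other 4 lists did. The replicates gave −log10 p values of 4.41 and 3.32 (FOXA1 full length), 3.75 and 5.95 (FOXA1 CTD-deleted), 1.92 and 1.67 for FOXA2 full length, and 4.12 and 4.12 for FOXA2 CTD-deleted. Both CTD-deleted lists had the higher strength of their pair, but the FOXA1 replicate values overlap. Strengths of different lists also depend on sequencing depth, which is unknown here. The match to AACAAAG begins 40 bases before the start, and the 4 summits lay 59 and 6 bases after its middle (FOXA1) or 53 and 55 bases before it (FOXA2), full length first. The forkhead words TGTTTAC and TGTTTGC were searched on both strands beside the SOX words AACAATG and AACAAAG, and the RARB window holds neither forkhead word. A forkhead word and a SOX word on the opposite strand can overlap by 4 bases. Only exact words were searched, so a forkhead-like sequence that differs by a letter, at this match or elsewhere, is not marked.

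Over all 96 windows of members, 5.21% held a forkhead word and 5.21% a SOX word, against 7.17% and 8.22% of all 35116 windows in the table. The RORA start lies 602 kb inside that gene, and the fusion's summit there had −log10 p values of 3.07 and 3.18 in its replicates. THRB, the gene of thyroid hormone receptor beta, had a FOXA2 full-length summit in a window at 3.02 and 1.72. ESRRG, the gene of estrogen-related receptor gamma, had a FOXA1 full-length summit in 1 of 8 windows, at 2.62 and 5.33. A match of letters is a description of the sequence and not a shown binding site.

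Most members had a FOXA1 or FOXA2 peak nearby, and 43 of 46 had a peak in at least 1 list. The share of coding genes with a peak in at least 1 list was not counted. FOXA1 full length had a peak near 38 members (82.6%, 69.3 to 90.9), where 71.5% of all protein-coding genes had one, and FOXA1 CTD-deleted near 33 members (71.7%), where 69.8% of coding genes had one. FOXA2 full length had a peak near 42 members (91.3%, 79.7 to 96.6) against 74.2% of coding genes, and FOXA2 CTD-deleted near 39 members (84.8%) against 76.1%. FOXA3 reached 16 members at full length (34.8%) against 24.2% of coding genes, and 18 after CTD deletion (39.1%) against 27.3%. The SOX2 list had no peak near any member, where 0.891% of coding genes had one, and the fusion had a peak near 17 members (37.0%) against 25.6%. In the list of FOXA2 full length alone, the whole interval of the members' share lay above the coding share.

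**Figure D1:**
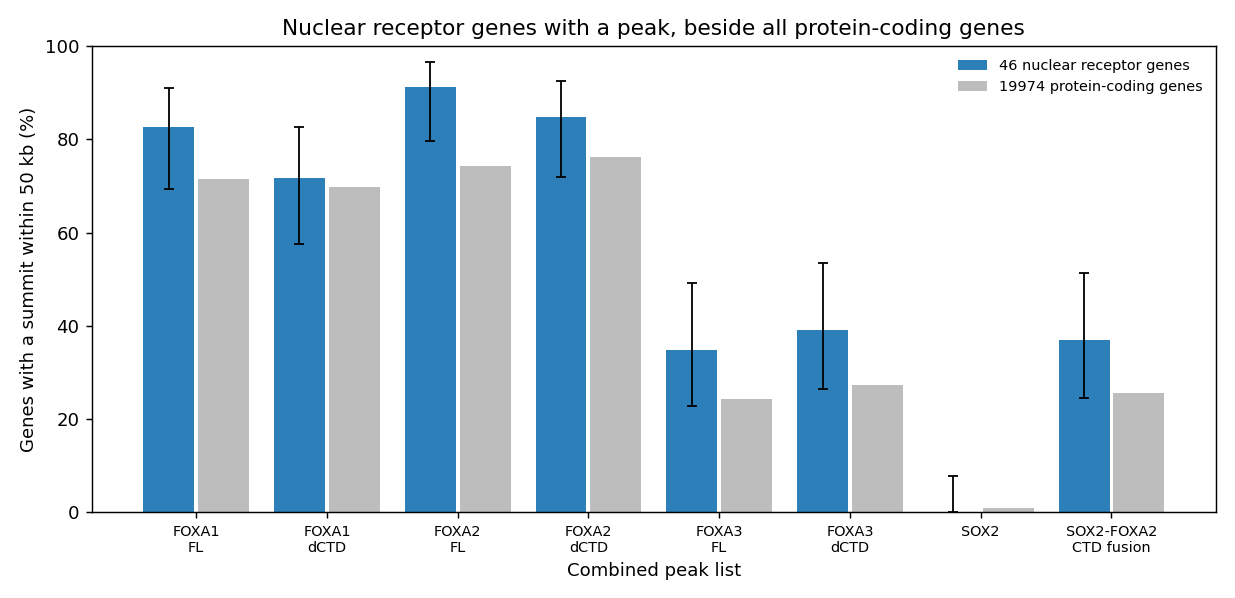
Percent of genes with a summit within 50 kb in each combined list, for the 46 nuclear receptor genes (blue, bars of error are Wilson 95% intervals over genes) and for the 19974 protein-coding genes (grey). The members' share reaches 91.3% for FOXA2 full length and is 0 for SOX2, where the grey bar stands at 0.891%.

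Receptor genes are longer than coding genes in general, and a longer gene has a wider window. The median span was 50.9 kb for members and 24.2 kb for coding genes, and 17 members (37.0%) spanned at least 100 kb, against 16.8% of coding genes. Among coding genes of at least 100 kb, 88.9%, 91.4%, 90.1% and 92.2% had a peak in the FOXA1 full-length, FOXA1 CTD-deleted, FOXA2 full-length and FOXA2 CTD-deleted lists, and 16, 15, 17 and 17 of the 17 long members did. Of the 29 shorter members 22, 18, 25 and 22 had a peak, or 75.9%, 62.1%, 86.2% and 75.9%, beside 68.0%, 65.5%, 71.0% and 72.8% of shorter coding genes. Per megabase of window the members held 14.8, 17.4, 17.0 and 20.8 peaks, which is 1.11, 1.05, 1.08 and 1.11 times the density around coding genes. The FOXA3 lists held 2.60 and 2.98 and the fusion 2.98 peaks per megabase, 1.32, 1.29 and 1.33 times the density around coding genes. RORA, with 841 kb of the 10.4 Mb of window, held 19.5%, 17.1%, 15.3% and 19.9% of the FOXA1 and FOXA2 peaks near members. Its share was 29.6% and 29.0% in the FOXA3 lists and 12.9% for the fusion. The density ratios have no interval and were not computed without RORA, so they do not show an excess spread over the members. The median strength near members was close to that of the whole list, for example 3.97 against 4.08 for FOXA1 full length and 3.04 against 2.96 for FOXA2 CTD-deleted. The widest gap was in FOXA3 CTD-deleted, at 7.11 against 7.75.

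**Figure D2:**
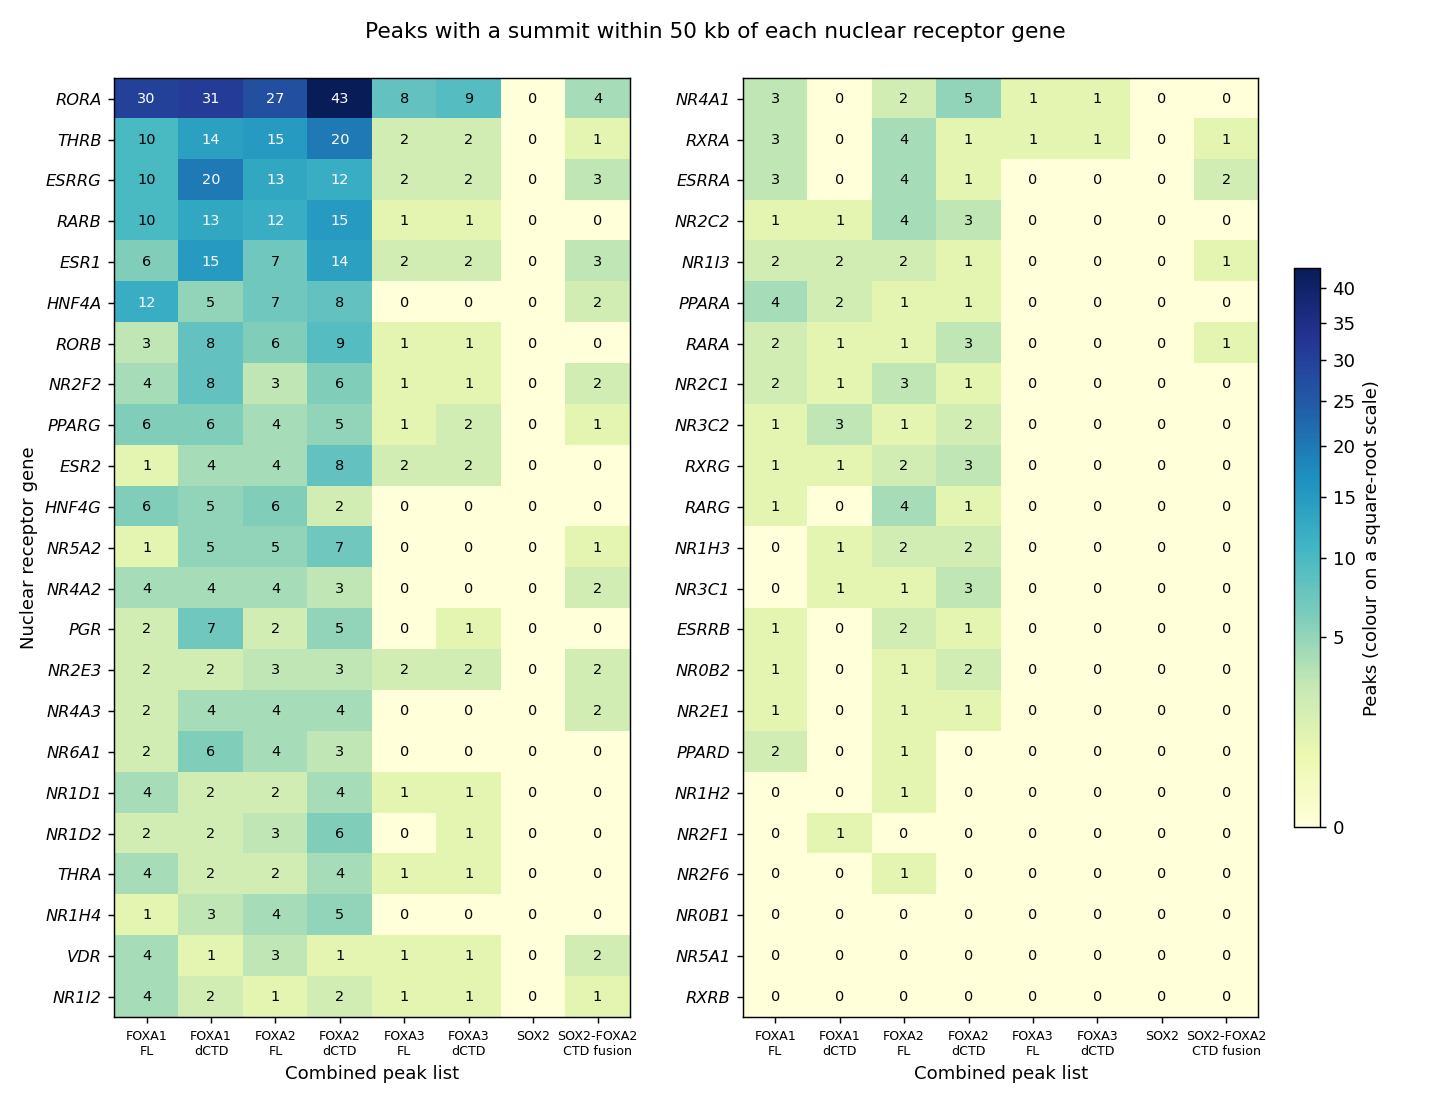
Number of peaks with a summit within 50 kb of each of the 46 nuclear receptor genes (rows, ordered by their total over lists) in each of the 8 combined lists (columns, FL is full length and dCTD is CTD-deleted). RORA leads in all 7 lists that have a peak near any member, with 43 peaks for FOXA2 CTD-deleted, and the lowest 3 rows have none.

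The peaks near members merged into 435 sites, which were spread unevenly. RORA alone had 60 sites, ESRRG 37, RARB 30, THRB 29, ESR1 28 and HNF4A 19, so that 6 genes held 203 sites, or 46.7%. RORB (17 sites), NR5A2 (14), PPARG (12) and ESR2 (10) follow, with PGR, NR2F2 and HNF4G also at 10, and the median member had 6. The first 5 of these genes span from 379 kb to 769 kb, and HNF4A spans 78.9 kb. Across the 46 members the number of sites and the window length had a Spearman correlation of 0.637, given as a description, since a longer window can hold more sites in all lists at once.

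No list had a peak within 50 kb of 3 members. RXRB encodes the beta form of RXR, NR5A1 encodes steroidogenic factor 1 of adrenal and gonad, and NR0B1 encodes DAX1, a repressor without a DNA-binding domain of the usual kind. Their spans are short, at 7.27, 26.2 and 5.18 kb. Around NR5A1 the nearest summits lay just outside the window, at 55.4 and 55.3 kb in the FOXA1 lists, full length first. Around RXRB the nearest FOXA1 and FOXA2 summits lay 227 to 229 kb away, and around NR0B1 204 to 2027 kb away. The only members with a peak in a single list were NR1H2 and NR2F6 (FOXA2 full length) and NR2F1 (FOXA1 CTD-deleted), each with 1 peak.

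A peak in 6 or more lists was found for 15 members. Of these, 9 (THRB, PPARG, RORA, VDR, NR1I2, NR2E3, NR2F2, ESR1 and ESRRG) had one in all 7 lists other than SOX2, and RARB, THRA, NR1D1, RORB, RXRA and ESR2 had one in 6. These genes encode receptors for thyroid hormone, fatty acids, vitamin D, xenobiotics and estrogens along with orphans, so they come from several branches of the family. How many coding genes had a peak in 6 or more lists was not counted, so the 15 members have no background share. At the level of sites, 13 of the 435 (2.99%) were shared by 6 lists, against 1.81% of sites genome-wide. None was shared by 7 or 8 lists, where the genome-wide shares were 0.180% and 0.105%. RORA held 5 of these 13, and ESR1, ESR2, ESRRG, PPARG, THRB, NR2E3 and NR2F2 held 1 each, as did the overlapping genes THRA and NR1D1 together.

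Among the clock-linked receptors, RORA holds the strongest peaks near members in the FOXA1, FOXA2 and fusion lists. RORA activates and the REV-ERB proteins, encoded by NR1D1 and NR1D2, repress transcription through the same response element in the circadian clock, and RORB is a relative of RORA found in retina and brain. RORA, on chromosome 15 from 60488284 to 61229302 on the minus strand, had 30, 31, 27 and 43 peaks in the FOXA1 full-length, FOXA1 CTD-deleted, FOXA2 full-length and FOXA2 CTD-deleted lists, 8 and 9 in the FOXA3 lists and 4 for the fusion. That is 12.9% to 29.6% of all peaks near members in those 7 lists. RORA held both of the strongest peaks near members in 3 of the 4 FOXA1 and FOXA2 lists, and the strongest 1 in FOXA1 full length.

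**Figure D3:**
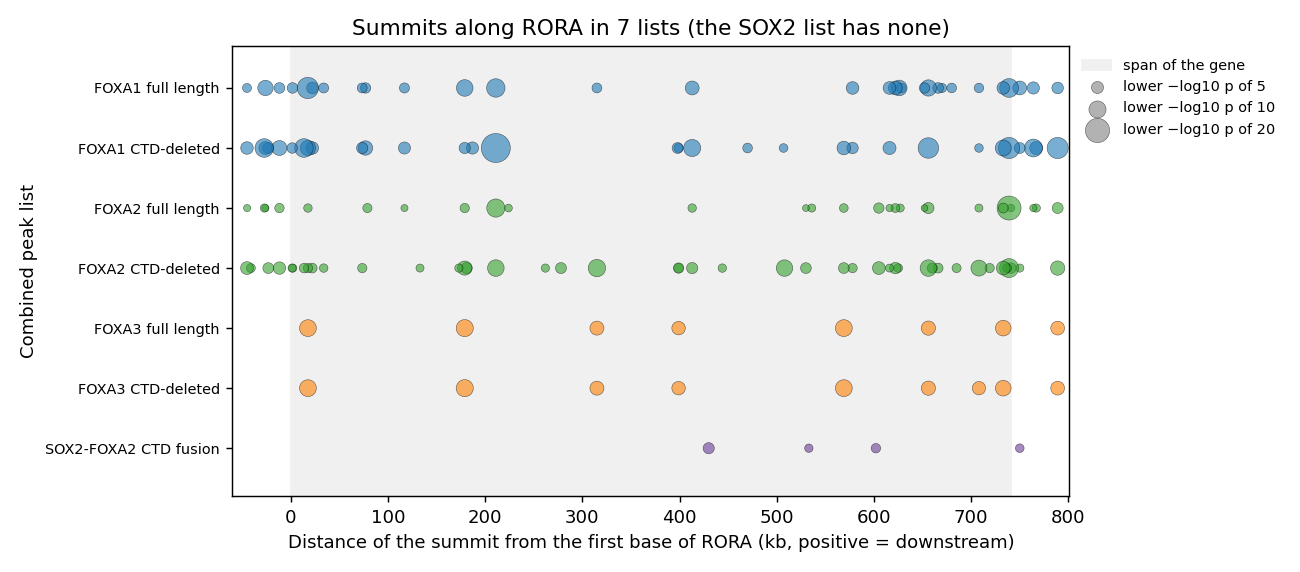
Position of each summit near RORA as its distance from the first base of the gene in kb (horizontal, grey shading is the gene's span), by combined list (vertical), with point area in proportion to the lower −log10 p of both replicates. The largest point is the FOXA1 CTD-deleted summit at 211 kb, and the FOXA3 rows share 8 positions.

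At 3 RORA sites, all inside the gene, the lists can be compared at a single place. At 211 kb from its first base (chromosome 15, 61018239 to 61019036), FOXA1 CTD-deleted had −log10 p values of 28.7 and 40.4, rank 85 of 50105 in its list. FOXA1 full length had 41.6 and 11.6 there, FOXA2 full length 11.3 and 19.1, and FOXA2 CTD-deleted 10.7 and 9.40. This site was in all 4 FOXA1 and FOXA2 lists and in neither FOXA3 list. At 739 kb (60490234 to 60491217), near the gene's end, FOXA2 full length had 21.4 and 19.6, rank 32 of 44637. The other lists gave 31.4 and 12 (FOXA1 full length), 15.2 and 23.1 (FOXA1 CTD-deleted), and 12.2 and 17.2 (FOXA2 CTD-deleted), so both FOXA2 full-length values lay above both of FOXA2 CTD-deleted, while the FOXA1 pair overlapped. At 17.6 kb (61211364 to 61212021), FOXA1 full length had 15.4 and 20.8, rank 270 of 37219, and the FOXA1 CTD-deleted peak had 7.98 and 15.5. FOXA2 had 5.08 and 2.46 at full length and 12.2 and 2.96 after deletion, and the row shared by both FOXA3 lists had 10.4 and 9.65.

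NR1D1 and THRA lie on opposite strands of chromosome 17 with overlapping ends, and they share 7 sites, which are counted for both. A site less than 1 kb before NR1D1 and 7.44 kb past THRA (40100633 to 40101584) was in all 6 FOXA lists. Its replicates gave 7.81 and 11.3 (FOXA1 full length), 2.76 and 13.2 (FOXA1 CTD-deleted), 8.79 and 5.58 for FOXA2 full length, 9.16 and 12.1 for FOXA2 CTD-deleted, and 12.6 and 14.2 for the shared FOXA3 row. The replicates of FOXA1 CTD-deleted lay further apart than those of any other list at this site. NR1D2 had 2, 2, 3 and 6 FOXA1 and FOXA2 peaks, and RORB 3, 8, 6 and 9. As a class the 4 clock-linked genes had 39, 43, 38 and 62 peaks.

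Steroid receptor genes had more peaks in the CTD-deleted lists of both proteins. The 5 genes (ESR1 and ESR2 for the estrogen receptors, PGR for the progesterone receptor, NR3C1 for the glucocorticoid receptor and NR3C2 for the mineralocorticoid receptor) had 10 and 30 FOXA1 peaks, full length first, a ratio of 3.00 (1.49 to 6.05), where the whole lists had a ratio of 1.35. For FOXA2 they had 15 and 32, a ratio of 2.13 (1.17 to 3.90), against 1.18 for the whole lists. With equal numbers of the strongest peaks of a pair, which brings the whole lists to 1, the ratios were 1.90 (10 and 19) and 1.73 (15 and 26). Without ESR1 the class had 4 and 15 FOXA1 peaks, and 8 and 18 of FOXA2. The class was singled out after its counts were seen, so the direction is a description of these lists.

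ESR1, on chromosome 6 from 151656672 to 152129619, had 6 and 15 FOXA1 peaks and 7 and 14 FOXA2 peaks, full length first. ESR2 had 1 and 4 FOXA1 peaks and 4 and 8 FOXA2 peaks, and PGR 2 and 7 and then 2 and 5. NR3C1 had 0 and 1 and then 1 and 3, and NR3C2 1 and 3 and then 1 and 2. All 5 genes thus had more peaks after deletion in both pairs as listed. With equal numbers of strongest peaks ESR1 had 6 and 8 FOXA1 peaks, and 7 and 13 of FOXA2, while NR3C2 had 1 and 1 FOXA1 peaks. The strongest FOXA3 peak near any member lay in ESR1 (151914389 to 151914961), at 20.5 and 26.8 in the row both FOXA3 lists share. At this ESR1 site FOXA1 full length had 19.7 and 5.53, FOXA1 CTD-deleted 7.96 and 26.7, FOXA2 full length 10.0 and 7.43, and FOXA2 CTD-deleted 8.41 and 18.5. Every one of these 4 lists had a lower weaker replicate than FOXA3, and the pairs overlap in their replicate values. The strongest PGR peak lay 9.20 kb before that gene (chromosome 11, 101138670 to 101139259) and had 11.3 and 25.3 for FOXA1 CTD-deleted.

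The HNF4 genes encode orphan receptors of liver, gut and kidney that bind fatty acids, and as listed they had fewer peaks after deletion. HNF4A and HNF4G together had 18 and 10 FOXA1 peaks, a ratio of 0.556 (0.261 to 1.18), and 13 and 10 FOXA2 peaks, a ratio of 0.769 (0.345 to 1.72). Both intervals include 1. With both lists held to the stricter limit the FOXA1 counts of the class were 4 and 10, which turns the direction. HNF4A had 12 and 5 FOXA1 peaks, full length first, the largest drop of any member in that pair, and 12 and 5 again with equal numbers of strongest peaks. Where both lists were held to the stricter of their limits it had 4 and 5, so the difference rests on full-length peaks beyond that limit. For FOXA2 HNF4A had 7 and 8 peaks, and HNF4G 6 and 2.

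The site 12.7 kb past the end of HNF4A (chromosome 20, 44446777 to 44447469) is the second strongest near a member for FOXA1 full length, at 13.6 and 18.8. FOXA2 full length had 2.96 and 5.49 there, and neither CTD-deleted list had a peak at the site. Inside HNF4A, a site from 44396916 to 44397348 was in all 4 lists, at 16.0 and 9.43 (FOXA1 full length) and 9.69 and 21.0 (FOXA1 CTD-deleted). It had 4.17 and 4.96 for FOXA2 full length and 6.76 and 9.67 for FOXA2 CTD-deleted. A neighbouring site (44397970 to 44398955) had 15.1 and 11.3 for FOXA1 CTD-deleted and no FOXA1 full-length peak. HNF4A thus carries sites with a peak in both full-length lists alone, in all 4, and in all but FOXA1 full length, beside sites of other kinds.

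Receptors that pair with RXR made up the largest class, 14 genes with 50, 47, 53 and 60 FOXA1 and FOXA2 peaks. THRB had 10 and 14 FOXA1 and 15 and 20 FOXA2 peaks, and RARB 10 and 13 and then 12 and 15. PPARG, the regulator of fat cell formation, had 6 and 6 and then 4 and 5. VDR, the vitamin D receptor gene, had 4 and 1 and then 3 and 1, and NR1I2, the gene of the xenobiotic sensor PXR, 4 and 2 and then 1 and 2. RARG had 1 and 0 and then 4 and 1. NR1H4, the gene of the bile acid receptor FXR, had 1 and 3 and then 4 and 5. THRA had 4 and 2 and then 2 and 4, so the class had no single direction. The RXR genes themselves had 4, 1, 6 and 4 peaks, with RXRA at 3, 0, 4 and 1.

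The other orphan receptors had no single direction. The 3 estrogen-related genes had 14 and 20 FOXA1 and 19 and 14 FOXA2 peaks. ESRRG accounted for most of them, with 10 and 20 and then 13 and 12, whereas ESRRA, a regulator of mitochondrial genes, had 3 and 0 and then 4 and 1. The NR4A genes, immediate early genes without a ligand pocket, had 9 and 8 and then 10 and 12, and NR4A1 within them had 3 and 0 and then 2 and 5. NR5A2, the gene of liver receptor homolog 1, had 1 and 5 and then 5 and 7, and NR6A1 2 and 6 and then 4 and 3. Together with NR5A1 these genes had 3 and 11 FOXA1 and 9 and 10 FOXA2 peaks. Their FOXA1 ratio of 3.67 was above the 3.00 of the steroid receptors, so a rise in FOXA1 was not particular to those. With equal numbers of strongest peaks they had 3 and 6 and then 9 and 8. Among the NR2 orphans, NR2F2 (COUP-TFII, a regulator of veins and mesenchyme) had 4 and 8 and then 3 and 6, and NR2E3, a photoreceptor factor, 2 and 2 and then 3 and 3. NR2E3 holds the second strongest FOXA3 peak near a member, 19.2 kb before the gene (chromosome 15, 71790982 to 71791565), at 13.9 and 24.4 in the shared row. The same site had 4.14 and 6.16, 6 and 8.78, 3.65 and 2.43, and 10.2 and 15.6 in the FOXA1 and FOXA2 lists.

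**Figure D4:**
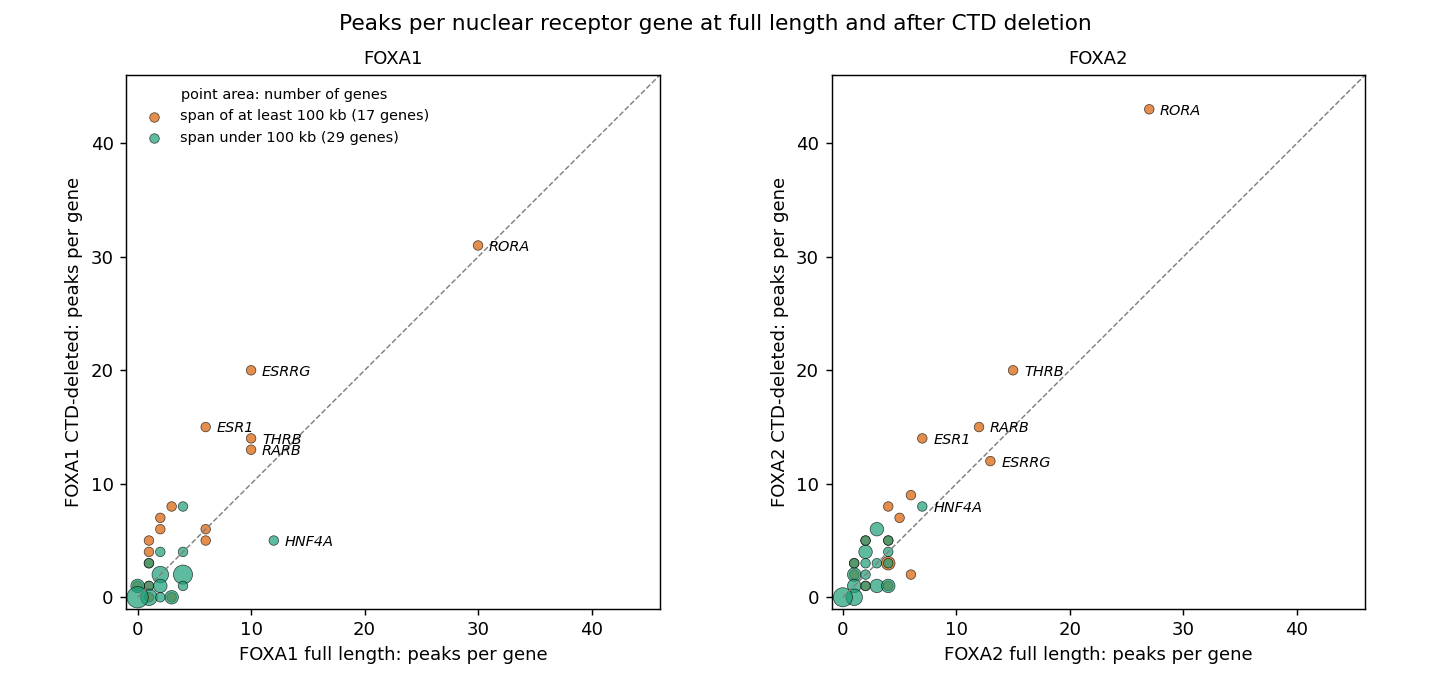
Peaks per nuclear receptor gene at full length (horizontal) and after CTD deletion (vertical), for FOXA1 (left) and FOXA2 (right), with point area in proportion to the number of genes at a position and the dashed line at equal numbers. Long genes (orange) such as ESR1 and THRB lie above the line in both panels, and HNF4A lies below it for FOXA1, at 12 and 5.

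Counted over members, CTD deletion of FOXA1 showed no single direction: 17 members had more peaks after deletion and 17 had fewer, with 34.5% of coding genes having more and 29.7% fewer. The peaks near members numbered 154 and 181, full length first, which gives a ratio of 1.18 (0.948 to 1.46). A FOXA1 peak at full length and none after deletion was found for 8 members (RARG, PPARD, RXRA, NR2E1, ESRRA, ESRRB, NR4A1 and NR0B2), which is 17.4% of members beside 11.4% of coding genes. The reverse was found for 3 (NR1H3, NR2F1 and NR3C1), 6.52% beside 9.69%. Of the full-length peaks near members, 69 (44.8%, 37.2 to 52.7) overlapped a CTD-deleted peak by at least 1 bp, against 56.0% in the whole list, which lies above that interval. In the other direction 38.1% (31.4 to 45.4) did, against 41.7%. The ratio changed with the limits of the lists: it was 3.93 with both lists held to the stricter of their limits (46 and 181 peaks) and 0.844 with equal numbers of strongest peaks (154 and 130).

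For FOXA2, 22 members had more peaks after deletion and 15 fewer, with 37.5% of coding genes having more and 28.4% fewer. The peaks near members numbered 177 and 216, a ratio of 1.22 (1.00 to 1.49). PPARD, NR1H2 and NR2F6 had a FOXA2 peak only at full length, 6.52% of members beside 7.78% of coding genes, and no member had one only after deletion, beside 9.61%. Of the full-length peaks near members 46.3% (39.1 to 53.7) overlapped a CTD-deleted peak, against 51.3% in the whole list, and 38% in the other direction, against 43.2%. The ratio was 1.79 at the stricter limit (121 and 216) and 1.01 with equal numbers.

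Gene length separated the members in the FOXA1 pair, a split made after the counts were seen. The 17 long members had 93 and 139 FOXA1 peaks, a ratio of 1.49 (1.15 to 1.94), and the 29 shorter ones 61 and 42, a ratio of 0.689 (0.466 to 1.02). All 5 steroid receptor genes are long and held 10 and 30 of the long members' peaks. The ratio of the long members and that of the steroid receptors thus share peaks, and the former was not computed without these genes. Long coding genes had a ratio of 1.33 and shorter ones 1.12, so the shorter members lay below their coding counterparts, whose ratio is outside the members' interval. Among long members 12 had more FOXA1 peaks after deletion and 3 fewer, beside 58.0% and 22.8% of long coding genes, and 5 shorter members had more and 14 fewer, beside 29.8% and 31.1%. With equal numbers of strongest peaks the ratios were 1.09 for long and 0.475 for shorter members, beside 0.985 and 0.817 for coding genes, and at the stricter limit of the pair they were 4.34 and 3.00, beside 4.36 and 3.72. Shorter members thus had the lower ratio under all 3 settings, but at the stricter limit it was above 1.

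In the FOXA2 pair the long members had 117 and 153 peaks, a ratio of 1.31 (1.03 to 1.66), and the shorter ones 60 and 63, a ratio of 1.05 (0.739 to 1.49), beside 1.20 and 1.15 for coding genes. The steroid receptor genes held 15 and 32 of the long members' FOXA2 peaks. Among long members 11 had more and 6 fewer, beside 53.0% and 28.3% of long coding genes, and 11 shorter members had more and 9 fewer, beside 34.4% and 28.4%. Both intervals include the coding ratio.

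The paralogs were compared in the same way. At full length, 23 members had more FOXA2 than FOXA1 peaks and 12 fewer, beside 39.7% and 25.4% of coding genes. After CTD deletion 24 had more FOXA2 peaks and 12 fewer, beside 41.5% and 23.9%. Of the FOXA1 full-length peaks near members 50.6% (42.8 to 58.4) overlapped a FOXA2 full-length peak, against 47.2% in the whole list. For the CTD-deleted proteins the share was 54.7% (47.4 to 61.8) against 45.7%, the one share of a pair of lists whose interval lay above that of all peaks. Without the peaks near RORA it was 50.7% (42.7 to 58.6), which is still above the 45.7%, but the interval then includes it. In the other direction, 44.6% (37.5 to 52.0) of FOXA2 full-length peaks near members overlapped a FOXA1 full-length peak, against 39.5% in the whole list. For FOXA2 CTD-deleted peaks the share in FOXA1 CTD-deleted was 46.8% (40.2 to 53.4) against 43.4%. Both of these intervals include the share of the whole list.

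Among 409 sites near members in any FOXA1 or FOXA2 list, 39 (9.54%) were in all 4, as were 9.17% of 103232 sites genome-wide. Sites in both full-length lists and neither CTD-deleted list numbered 22, or 5.38% (3.58 to 8.01), against 2.19% genome-wide, and fell near 18 members, HNF4A, VDR, PPARA, RXRA and ESRRA among them. Sites in both CTD-deleted lists and neither full-length list numbered 31, or 7.58% (5.39 to 10.6), against 4.50%, and fell near 19 members, ESR1, ESR2, PGR, NR2F2 and RORB among them. The genes just named had sites of 1 kind only, whereas RORA, ESRRG, RARB, THRB, NR1D2, NR4A2, NR5A2 and RXRG had sites of both kinds. Both of these kinds were more frequent near members than genome-wide beyond counting error over sites, which shared genes make too narrow. Sites of both FOXA1 lists alone made up 2.69% against 4.74%, and those of both FOXA2 lists alone 3.91% against 5.04%.

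FOXA3 sites near members were mostly shared with the other paralogs. Of the 31 peaks of FOXA3 CTD-deleted near members, 29 (93.5%) overlapped a peak in some FOXA1 or FOXA2 list and 13 (41.9%, 26.4 to 59.2) in all 4, against 94.1% and 31.9% in the whole list. A comparison of FOXA3 with and without its CTD near members was not possible, because all 27 full-length peaks are rows that the CTD-deleted list repeats. The 4 further peaks of the CTD-deleted list added NR1D2 and PGR as members with a peak, 4.35% of members beside 3.31% of coding genes.

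The fusion of SOX2 with the CTD of FOXA2 had 31 peaks near 17 members (37.0%, beside 24.9% of coding genes with a fusion peak and no SOX2 peak), where SOX2 had none. Against a floor of 3 peaks for the SOX2 list, that is at least 10.3-fold more. Within 50 kb of coding genes the fusion had 4165 peaks and SOX2 had 91, so a large difference was not particular to members. The whole lists have a ratio of 5.75, and the first replicate's lists a ratio of 3.12 near members (50 and 156 peaks). At the IDR limit of the SOX2 list the fusion had no peak near a member either, so the difference rests on fusion peaks with an IDR between 0.100 and 0.920. The SOX2 list was sparse around genes in general, with 91 of its 1365 peaks within 50 kb of any coding gene. RORA had 4 fusion peaks, ESR1 and ESRRG 3 each, and HNF4A, VDR, ESRRA, NR2E3, NR2F2, NR4A2 and NR4A3 2 each. The strongest lay in RORA (chromosome 15, 60798747 to 60799344) at 8.41 and 4.28, and the next 2.00 kb before NR4A3 (chromosome 9, 99819274 to 99820518) at 4.04 and 4.27. Of the 31 fusion peaks 7 (22.6%, 11.4 to 39.8) overlapped a peak in some FOXA1 or FOXA2 list, against 36.4% in the whole list, and none lay at a site of all 4.

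Summits inside the span of a member made up 59.7%, 68.5%, 61.0% and 67.6% of the peaks near members in the FOXA1 and FOXA2 lists, full length first in each pair, beside 69.1%, 72.3%, 72.3% and 68.2% around coding genes. Spans take up 57.6% of the members' windows and 67.7% of the coding windows. In FOXA1 full length (51.8 to 67.2) and FOXA2 full length (53.7 to 67.9) the members' intervals lay below the coding share, and the span takes up less of the members' windows as well.

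Coregulators, the proteins that receptors recruit to activate or repress, were described by a list of 18 genes. A peak lay near 16, 17, 17 and 17 of them in the FOXA1 and FOXA2 lists, with 75, 75, 76 and 94 peaks, near 5 and 6 in the FOXA3 lists, near 4 for the fusion and near none for SOX2. In the FOXA3 lists that is 27.8% and 33.3% of them, beside 24.2% and 27.3% of all coding genes. For the fusion it is 22.2% beside 25.6%, and for SOX2 0 beside 0.891%. In the FOXA1 and FOXA2 lists that is 88.9%, 94.4%, 94.4% and 94.4% of them, beside 71.5%, 69.8%, 74.2% and 76.1% of all coding genes and 88.9%, 91.4%, 90.1% and 92.2% of long ones. NCOA1, the gene of the coactivator SRC-1, had 9 and 11 FOXA1 and 7 and 14 FOXA2 peaks. NCOR1, the gene of a corepressor, had 0 and 3 and then 3 and 3, and CARM1, a methyltransferase gene, had a peak in the FOXA3 lists alone. Of 10 genes that make, carry or break down retinoic acid, 7, 7, 6 and 6 had a FOXA1 or FOXA2 peak, which is no more than the shares of all coding genes just given would place there, to the nearest gene. ALDH1A2, which encodes a retinoic acid making enzyme, led with 5 and 8 FOXA1 and 4 and 16 FOXA2 peaks, and ALDH1A3, of the same family, had none in the 6 FOXA lists.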

How the data were processed

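Flag ChIP-seq peak lists of 8 groups were used. Per the submitters' processing notes the build was hg38 and the tools were FastQC 0.10.1, Trim Galore, Bowtie2 2.4.4, SAMtools 0.1.18, MACS2 and deepTools 2.4.1, with no role or order given. The control, the filters and the IDR limit are not given in the sources used here. In the combined lists the authors deposited an IDR score (125 times log2 of 1 over the IDR, capped at 1000), a summit position and the −log10 p of each peak in both replicates. The first-replicate lists of SOX2 and the fusion hold the authors' fold enrichment (a ratio over background) and −log10 p. Of 14 lists 10 were used, and 4 were copies.

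Summits on chromosomes 1 to 22 and X were counted within 50 kb of each gene's ends in RefSeq GRCh38.p14 with Python 3.11.15 and SciPy 1.17.1. Overlap meant at least 1 bp. Counting was tested on simulated peaks with known answers. The 46 members, the gene lists and the counts were chosen with earlier results of these data known. Named genes are the 10 with most sites, those with a peak in 6 or more lists or in none, the 3 with the largest differences each way in a pair, the 2 strongest peaks of a list and members with a promoter summit. Other genes were named after their values were seen. With a single combined list for a group, no test between groups was run and no p-value was made. Replicate lists other than those 2, depth and input were not analysed here. Alternatives were other windows, an IDR of at most 0.01, the stricter IDR limit of a pair, equal numbers of the strongest peaks, other overlap rules, the first replicate's lists, and leaving out the shared FOXA3 rows or, chosen after seeing the data, the peaks near RORA. The length split, its settings and those of single classes were also chosen after seeing the data.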

Additional observations from a re-analysis of the deposited data

Results flagged for a closer look

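The separate lists of replicate 1 for SOX2 and the fusion were not part of the main counts, and they held peaks near receptor genes. The SOX2 list of that replicate had 50 peaks near 22 members (47.8%, beside 30.8% of coding genes), and that of the fusion 156 peaks near 37 members (80.4%, beside 67.0%). None of the 50 SOX2 peaks and 25 of the 156 fusion peaks overlapped a peak of the same protein's combined list, which is 0 and 16.0%, beside 1.94% and 10.5% of all peaks in these lists. The authors' fold enrichment ran from 2.24 to 5.45 (median 3.15) for SOX2 and from 2.01 to 9.40 (median 3.04) for the fusion. RORA had 14 and 17 of these peaks, ESR1 5 and 11, ESRRG 2 and 13, RARB 2 and 14 and NR4A2 1 and 9, SOX2 first. The strongest SOX2 peak lay in RORA (chromosome 15, 60850639 to 60851435, fold 5.45), and that of the fusion in ESR1 (chromosome 6, 151663335 to 151664275, fold 9.40). A fusion peak overlapped 40 of these 50 (80.0%, 67.0 to 88.8), while a SOX2 peak overlapped 25.6% (19.4 to 33) of the 156. In the whole lists the shares were 74.8% and 24.3%. These are values of 1 replicate, with no replicate check, and their level in input was not analysed here.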

How the results depend on the processing

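Over 25 results and 88 alternative values, 59 stayed within the limits set (1.5 times for a count of members, the counting interval for a ratio or share) and 29 moved. Of the ratios, 4 values lay on the other side of 1: FOXA1 over all members 0.844 (1.18 as listed) and FOXA2 over shorter members 0.850 (1.05) with equal numbers, and in FOXA1 shorter members 3.00 (0.689) and the HNF4 genes 2.50 (0.556) at the stricter limit. The listed intervals of these 4 include 1. At an IDR of at most 0.01 the members with a peak fell to 7 for FOXA1 full length, 0 for FOXA2 full length (whose list has no such peak), 9 for FOXA2 CTD-deleted and 0 for the fusion. With summits inside the gene, FOXA3 full length had 10 members, FOXA3 CTD-deleted 11 and the fusion 11. Without the shared FOXA3 rows these lists had 0 and 4 members. In the first replicate's lists SOX2 had 22 and the fusion 37, and the ratio of their peaks was 3.12. The CTD-deleted over full-length ratio for FOXA1 was 8.27 at an IDR of at most 0.01, 3.93 at the stricter limit and 0.844 with equal numbers, and for FOXA2 at least 7.33 (22 peaks over a floor of 3) and 1.79 at the first 2 of these. With summits within 100 bp in place of overlap, the shared part of the full-length peaks was 37.0% for FOXA1 and CTD-deleted FOXA1, 37.9% for the FOXA2 pair and 40.9% for FOXA1 and FOXA2. At an IDR of at most 0.01 it was 63.6% for the FOXA1 pair (7 of 11 peaks) and 18.7% for both CTD-deleted. For FOXA1 and FOXA2 at full length it was 0, which was fixed in advance, since the FOXA2 list has no such peak to overlap. The cause of the other shifts was not tested. The other moved values are those of gene groups at the stricter limit or with equal numbers: for long members 4.34 and 1.09 in FOXA1 and 1.94 in FOXA2, and for shorter ones 1.5 in FOXA2.

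There is no value for the fusion over SOX2 ratio at an IDR of at most 0.01, at the stricter limit or with equal numbers (at most 2 peaks in either list), for the FOXA2 pair's share at an IDR of at most 0.01, for the FOXA3 share without shared rows, or for any share of SOX2 peaks. No paired analysis was possible because each group has 1 combined list and its replicate columns carry no number. Unknown depth and unequal IDR limits restrict all comparisons of counts between lists.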
